A study of Mus musculus with 2 samples.

Results

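Cadherins are calcium-dependent adhesion molecules that join neighbouring cells through their extracellular repeats. The classical cadherins bind β-catenin and p120-catenin on the inside of the membrane and are thereby linked to actin, and the protocadherins have other cytoplasmic tails and are best known for sorting neurons. In the vessel wall, N-cadherin (Cdh2) joins mural cells to each other and to the endothelium, which is itself held together by VE-cadherin (Cdh5). The genes described here are those whose symbol is Cdh or Pcdh followed by a number, so that the clustered protocadherin genes are left out. The rule found 34 of the 20211 gene symbols, 23 named Cdh and 11 named Pcdh, and each stood on a single row. By textbook class they were 5 type I and 13 type II classical cadherins, the GPI-anchored Cdh13, the 7D cadherins Cdh16 and Cdh17, the cadherins Cdh23 and Cdh26, 3 delta-1 and 5 delta-2 protocadherins, and Pcdh12, Pcdh15 and Pcdh20.

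RNA was sequenced from cultured perivascular cells (PCs) of the aorta of C57BL/6 mice, with 1 library from wild type (WT) cells and 1 from cells of mice lacking Kai1, the gene Cd82, which encodes a membrane protein of the tetraspanin family. No treatment was given to either. The labels state 10% serum in the medium and the culture methods a higher share. C57BL/6 mice bought for the study were adults, male or female. The age, sex and number of the mice behind each library, and how the knockout was made, are not given in the sources used here. The values are RPKM, read numbers scaled to transcript length and to the mapped reads of the library, so that levels of different genes can be compared within a library. Kai1-/- PCs were compared with WT PCs as a log2 ratio with 0.1 RPKM added to both values, so that the ratio of a gene with few reads comes out too small, and counts of ratios were restricted to the 10068 genes whose mean RPKM was 1 or more, called the genes kept. With 1 library per genotype no difference below has a replicate check, and differences between animals, in sex, between cultures and between library preparations cannot be told apart from genotype.

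For the targeted gene Cd82, the RPKM of WT PCs was 12.8 and that of Kai1-/- PCs 2.62, so some reads of the gene were still counted in the knockout; the altered exons are not given in the sources used here. Steps of whole reads among the low RPKM values corresponded to about 29500000 reads in WT and 26700000 in Kai1-/- PCs. Reads per gene given below are estimates from these steps and the longest annotated transcript, and their 95% intervals cover counting error only. The intervals come from the reads alone, whereas the ratios of Kai1-/- over WT include the added 0.1 RPKM, so they match less well at low levels. Of 12 mural markers, 11 were above 0 in WT and 12 in Kai1-/- PCs, with a summed RPKM of 4646 and 2978 that came mostly from Acta2, whereas the pericyte marker Rgs5 stood at 0.0630 and 0.233 and Kcnj8 at 0 and 0.791. All 10 fibroblast markers were above 0 in WT PCs and 8 in Kai1-/- PCs, with a summed RPKM of 2157 and 1402. Beside this and later counts of markers above 0 stands the share over all genes. Of all genes above 0 and below 1 RPKM in WT PCs, 32.0% were listed at 0 in Kai1-/- PCs.

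The PCs expressed a small set of cadherins at an RPKM of 1 or more. An RPKM of at least 1 in either library was reached by 10 of the 34 genes, 5 more stayed between 0.1 and 1, 11 were above 0 but below 0.1, and 8 were listed at 0 in both libraries. N-cadherin was the most abundant in both genotypes, followed by Cdh11 and Cdh13, and these 3 genes made up 75.6% of the summed RPKM of all 34 in WT PCs and 77.3% in Kai1-/- PCs. The summed RPKM of the 34 genes was 94.8 in WT and 69.9 in Kai1-/- PCs, while that of all rows was 885190 and 1238893.

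**Figure D1:**
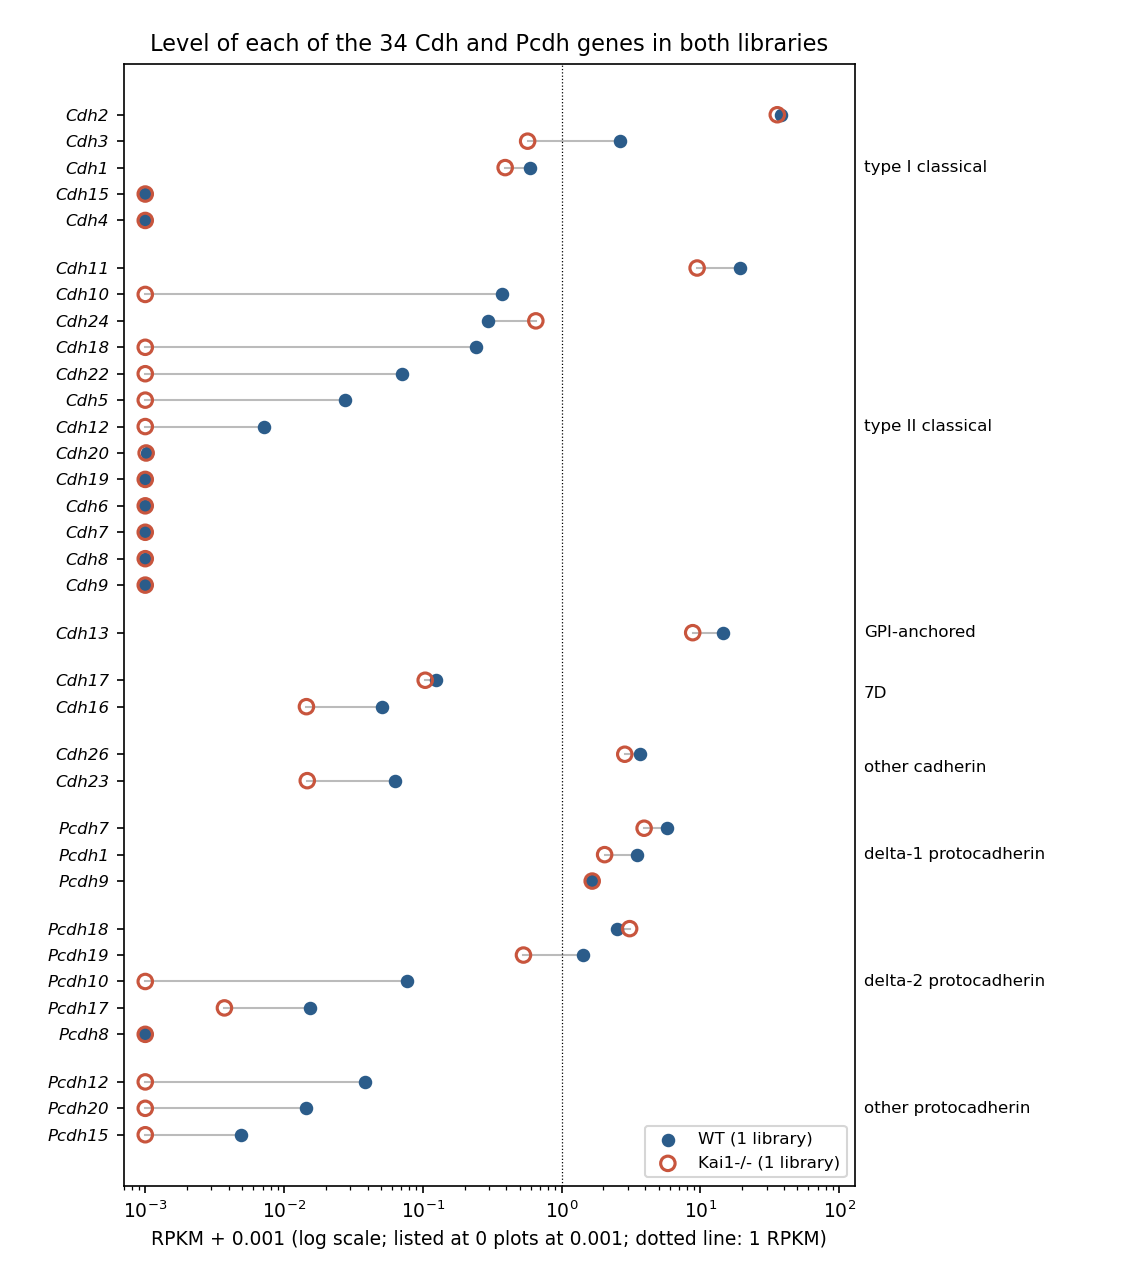
RPKM of each of the 34 genes in the WT library (filled points) and the Kai1-/- library (open circles), plotted as RPKM + 0.001 on a log axis and grouped by class, with 1 library per genotype and no error bars. As deposited, the open circles lie at or left of the filled points for all genes except Cdh24, Pcdh18 and Pcdh9, whose values were 1.65 and 1.66.

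Of the 34, 9 genes were kept, and of these Cdh3 and Cdh11 were more than 2-fold lower in Kai1-/- PCs, against 7.81% of all 10068 genes kept. None of the 9 was more than 2-fold higher, against 7.98% of all genes kept. The ratio was below 0 in 7 of the 9, against 44.9% of all genes kept, and their median log2 ratio was -0.53 against 0.08 for all genes kept. With no filter on mean RPKM, 17 of the 34 genes were above 0 in both libraries. Of these 17, 14 were lower in Kai1-/- PCs, against 47.3% of all genes above 0 in both, at any level. The reads were too few for a direction in Cdh20, Cdh16 and Pcdh17, which are among the 14. Cdh20 had less than 1 read in each library, and Cdh16 and Pcdh17 had about 4 reads in WT and 1 in Kai1-/- PCs. The genes with a higher value there were Pcdh18, Cdh24 and Pcdh9, of which Pcdh18 and Pcdh9 turned to -0.19 and -0.46 on the log2 scale when the libraries were scaled to Gapdh, and Pcdh9 also to -0.07 and -0.25 with the medians or the upper quartiles made equal. Scaling both libraries to Gapdh put 5 rather than 2 of the 9 past the 2-fold line on the lower side, against 18.4% of all genes kept under that scaling, Gapdh itself being higher in the Kai1-/- library by 0.50 on the log2 scale.

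Type I classical cadherins carry the strong homophilic adhesion of many solid tissues. Cdh2 lies on the minus strand of chromosome 18 (16747386 to 16967755 in the mm9 genome), and its RPKM was 37.9 in WT and 35.8 in Kai1-/- PCs. The log2 ratio was -0.08, with a counting interval of ± 0.06 from about 5190 and 4438 reads. N-cadherin RNA was thus at nearly the same RPKM in both libraries as deposited, and its ratio lay at -0.58 when the libraries were scaled to Gapdh. The RPKM of all rows summed to 885190 in WT and 1238893 in Kai1-/- PCs. A similar RPKM was therefore a smaller share of that sum in Kai1-/- PCs. No ratio was recomputed with these sums made equal.

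P-cadherin (Cdh3), best known from basal epithelial layers, showed the lowest ratio of the 9 genes kept. Its RPKM was 2.63 in WT and 0.568 in Kai1-/- PCs, 21.6% of the WT level, for a log2 ratio of -2.03 ± 0.41 from about 293 and 57 reads. In comparison, 2.23% of all genes kept had a lower ratio. Because the level was low, the ratio shrank to -1.21 with 1 RPKM added to each value, which is still more than 2-fold.

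E-cadherin (Cdh1), the classical cadherin of epithelia, lies close to Cdh3 on chromosome 8, with 1 other protein-coding gene between them. Cdh3 runs from 109034791 to 109080808 and Cdh1 from 109127251 to 109194146, both on the plus strand and 46.4 kb apart. The RPKM of Cdh1 was 0.593 in WT and 0.391 in Kai1-/- PCs, 65.9% of the WT level, from about 74 and 44 reads. Its log2 ratio of -0.50 was drawn toward 0 by the added 0.1 RPKM. The counting interval of ± 0.54 comes from the reads alone and belongs to the ratio without this addition. Set against -0.50, it does not settle whether Cdh1 differed between the libraries. The RPKM of Cdh3 was above that of Cdh1 in both libraries, and in Kai1-/- PCs both were under 1. R-cadherin (Cdh4) and M-cadherin (Cdh15), the latter known from skeletal muscle, were listed at 0 in both libraries.

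Markers of epithelium were looked up beside Cdh1 and Cdh3. Of 12 epithelial markers, 6 were above 0 in WT and 5 in Kai1-/- PCs, and Epcam, Krt5, Cldn4, Grhl2 and Esrp1 were listed at 0 in both. Their summed RPKM was 29.8 in WT and 92.1 in Kai1-/- PCs, of which Krt19, a keratin, gave 29.3 and 91.3. Krt14, a keratin of basal layers, had 0.0695 and 0.641 RPKM, from about 3 and 26 reads. The part of epithelial cells in the values of Cdh1 and Cdh3 was not tested, and in RNA from a whole culture fewer cells of a type and less RNA per cell cannot be told apart.

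Type II classical cadherins are the larger class, found mostly in mesenchyme, endothelium and the nervous system. Cdh11, the cadherin of mesenchymal and bone-forming cells, was the only one of the 13 with an RPKM of at least 1. It lies on the minus strand of chromosome 8 (105156895 to 105309011). Its RPKM was 19.3 in WT and 9.47 in Kai1-/- PCs, 49.0% of the WT level, for a log2 ratio of -1.02. With about 2290 and 1016 reads the counting interval was ± 0.11, so that counting error alone spanned the 2-fold line, and with 1 RPKM added to each value the ratio was -0.96. Among all genes kept, 7.52% had a lower ratio. Some mural and fibroblast markers were also lower in this library: 4 of the 7 mural markers kept were more than 2-fold lower, with a median log2 ratio of -1.04, and 4 of the 8 fibroblast markers kept, with a median of -0.96. Of all genes kept, 7.81% were more than 2-fold lower, and their median was 0.08. Others had higher values there, Col3a1 with 67.5 and 101 RPKM and Thy1 with 324 and 380 among the fibroblast markers, and Rgs5 and Kcnj8, both under 1 RPKM, among the mural markers. The part of these cells in the lower Cdh11 was not tested.

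Among the other type II cadherins, Cdh24 was the one with a higher value in Kai1-/- PCs. It lies on chromosome 14 from 55250829 to 55260201, and its RPKM was 0.294 in WT and 0.651 in Kai1-/- PCs, for a log2 ratio of 0.93 ± 0.74 from about 22 and 44 reads. The neuronal cadherins Cdh10 and Cdh18 stood at 0.369 and 0.239 RPKM in WT PCs, from about 35 and 18 reads, and both were listed at 0 in Kai1-/- PCs. Both belong to a run of 5 type II genes on chromosome 15, Cdh6, Cdh9, Cdh10, Cdh12 and Cdh18, of which 3 were above 0 in WT PCs and 0 in Kai1-/- PCs. All 3 were below 1 RPKM in WT PCs, a range in which 32.0% of all genes above 0 were listed at 0 in Kai1-/- PCs. The value of Cdh12 came from about 1 read, and Cdh6 and Cdh9 were listed at 0 in both libraries. Cdh22, another cadherin of the brain, had 0.0698 RPKM in WT PCs, from about 7 reads, and was listed at 0 in Kai1-/- PCs.

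Of 10 neural and Schwann cell markers, 7 were above 0 in WT and 5 in Kai1-/- PCs, with a summed RPKM of 74.7 and 81.6. The 3 markers kept had a median log2 ratio of -1.14, against 0.08 for all genes kept. Of these 3, 2 were more than 2-fold lower in Kai1-/- PCs, against 7.81% of all genes kept. They were S100b with 13.7 and 3.18 RPKM and Ncam1 with 17.3 and 7.79. The third, the neuronal tubulin gene Tubb3, had 43.4 and 70.5 RPKM and gave most of the sum. The neuronal markers Elavl4 and Syt1 and the glial marker Gfap were listed at 0 in both, and the Schwann cell marker Sox10 had 0.0134 RPKM in WT PCs and was listed at 0 in Kai1-/- PCs. Whether such cells gave the reads of Cdh10 and Cdh18 was not tested.

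VE-cadherin and Pcdh12, a protocadherin of endothelial cells, were near 0. Cdh5 had 0.0267 RPKM in WT PCs, from about 3 reads, and was listed at 0 in Kai1-/- PCs, and Pcdh12 had 0.0376 RPKM in WT PCs, from about 6 reads, and was listed at 0 in Kai1-/- PCs. Of 12 endothelial markers, 8 were above 0 in WT and 2 in Kai1-/- PCs, and Emcn, Cldn5, Esam and Sox17 were listed at 0 in both. Their summed RPKM was 4.65 in WT and 7.59 in Kai1-/- PCs, where Egfl7 gave 2.28 and 7.39. Ptprb, the other marker above 0 in both, had 1.10 and 0.198 RPKM, from about 380 and 62 reads. Pecam1, which encodes CD31, had 0.413 RPKM in WT PCs and was listed at 0 in Kai1-/- PCs. The 6 markers above 0 in WT PCs alone were all below 1 RPKM there. In that range 32.0% of all genes above 0 were listed at 0 in Kai1-/- PCs. Of the type II genes, Cdh7, Cdh8 and Cdh19, like Cdh6 and Cdh9, were listed at 0 in both libraries, and the trace of Cdh20 corresponded to less than 1 read.

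T-cadherin (Cdh13) differs from the classical cadherins in that it has no cytoplasmic tail and is held in the membrane by a GPI anchor, and it is known as a receptor for adiponectin on vascular cells. It lies on the plus strand of chromosome 8 (120807633 to 121848821), with 8 annotated transcripts. Its RPKM was 14.5 in WT and 8.80 in Kai1-/- PCs, 60.8% of the WT level, for a log2 ratio of -0.71 ± 0.11 from about 1863 and 1025 reads. The value stayed short of 2-fold as deposited and reached -1.21 when scaled to Gapdh.

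The ratios between cadherins within a library do not depend on how the libraries were scaled to each other. In WT PCs the RPKM of Cdh2 was 1.96 times that of Cdh11 and 2.62 times that of Cdh13, and in Kai1-/- PCs it was 3.78 and 4.07 times. Relative to Cdh2, Cdh11 was thus lower in Kai1-/- PCs by a log2 difference of -0.95 ± 0.12, Cdh13 by -0.64 ± 0.12 and Cdh3 by -2.13 ± 0.41, with counting intervals that excluded 0. The share of Cdh2 in the summed RPKM of the 34 genes was 40.0% in WT and 51.2% in Kai1-/- PCs, that of Cdh11 was 20.4% and 13.5%, and that of Cdh13 was 15.3% and 12.6%.

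**Figure D2:**
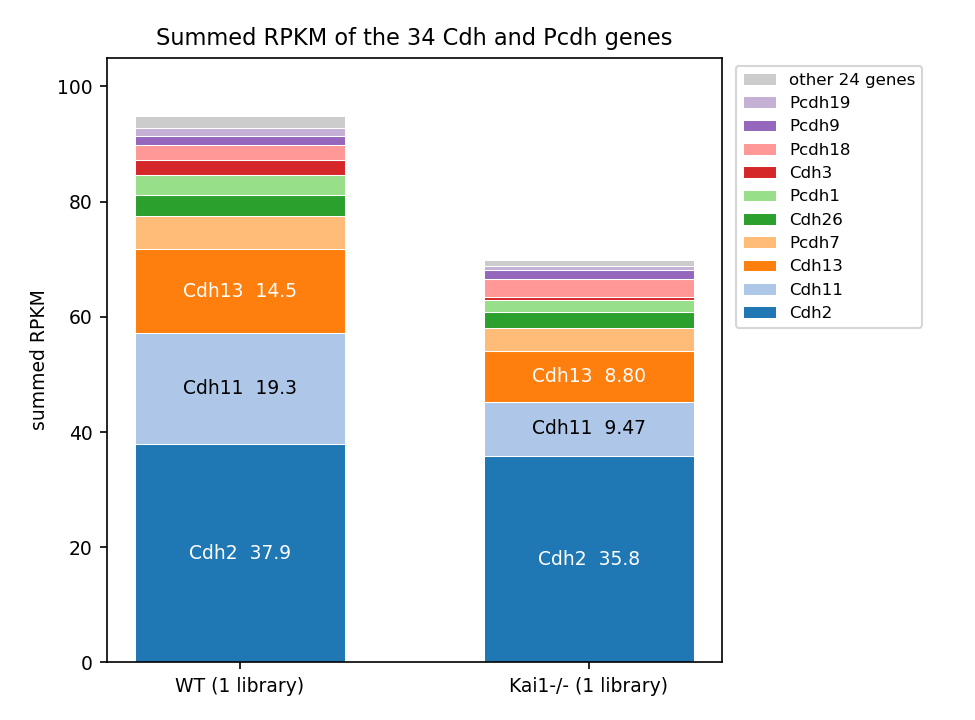
Summed RPKM of the 34 genes in each library as stacked bars from 0, with 1 library per genotype and no error bars. The blocks of Cdh11 and Cdh13 are smaller in the Kai1-/- bar, 9.47 and 8.80 against 19.3 and 14.5, and that of Cdh2 is nearly the same, 35.8 against 37.9.

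The remaining cadherins showed 1 expressed gene. Cdh26, a cadherin known from epithelia in allergic inflammation, lies on the plus strand of chromosome 2 (178165236 to 178222071). Its RPKM was 3.66 in WT and 2.85 in Kai1-/- PCs, for a log2 ratio of -0.35 ± 0.26 from about 293 and 206 reads. The 7D cadherins of kidney and gut were low in both libraries, with 0.0494 and 0.0135 RPKM for Cdh16 and 0.124 and 0.103 for Cdh17 in WT and Kai1-/- PCs. Cdh23, which with Pcdh15 forms the tip links of hair cells in the inner ear, had 0.0620 and 0.0137 RPKM, from about 19 and 4 reads. Its partner Pcdh15 had about 1 read in WT PCs and was listed at 0 in Kai1-/- PCs.

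The delta-1 protocadherins were all expressed. Pcdh7 lies on chromosome 5 from 58109260 to 58520590 and Pcdh1 on chromosome 18 from 38345569 to 38371707. Pcdh7 had an RPKM of 5.74 in WT and 3.93 in Kai1-/- PCs, for a log2 ratio of -0.53 ± 0.15, and Pcdh1, a protocadherin of airway epithelium, had 3.52 and 2.04, for a log2 ratio of -0.76 ± 0.21. Pcdh9, on chromosome 14 from 93414731 to 94287951, had 1.65 and 1.66, for a log2 ratio of 0.01 ± 0.31. Pcdh7 and Pcdh1 were thus lower in Kai1-/- PCs beyond counting error, while the interval of Pcdh9 spanned 0. Relative to Cdh2 within each library, the log2 difference was -0.46 ± 0.16 for Pcdh7 and -0.70 ± 0.22 for Pcdh1.

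The delta-2 protocadherins went both ways. Pcdh18 lies on the minus strand of chromosome 3 (49547218 to 49561238), and its RPKM was 2.50 in WT and 3.09 in Kai1-/- PCs, for a log2 ratio of 0.30 ± 0.20 from about 366 and 410 reads. Its direction turned with scaling to Gapdh, and relative to Cdh2 within each library it was higher in Kai1-/- PCs by 0.39 ± 0.21. Pcdh19, on the minus strand of chromosome X (130117402 to 130223532), had an RPKM of 1.42 in WT and 0.530 in Kai1-/- PCs, 37.2% of the WT level. Its log2 ratio was -1.27 ± 0.27 from about 423 and 143 reads. Pcdh19, whose mean RPKM of 0.977 lay just under the filter, is not among the 9 genes counted above, and Cdh3, with a mean of 1.60, was the gene closest above it. With 1 RPKM added to each value the ratio of Pcdh19 was -0.66, less than 2-fold. The Y-linked genes Ddx3y, Eif2s3y, Kdm5d and Uty reached 6.56, 3.17, 0.941 and 0.479 RPKM in WT PCs and were listed at 0 in Kai1-/- PCs. Any part of sex in the level of the X-linked Pcdh19, or in any other ratio given here, cannot be told apart from genotype.

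Pcdh10 had 0.0753 RPKM in WT PCs, from about 18 reads, and was listed at 0 in Kai1-/- PCs. Pcdh17 had about 4 reads and 1 read, Pcdh20 about 2 reads in WT PCs and none in Kai1-/- PCs, and Pcdh8 was listed at 0 in both libraries.

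**Figure D3:**
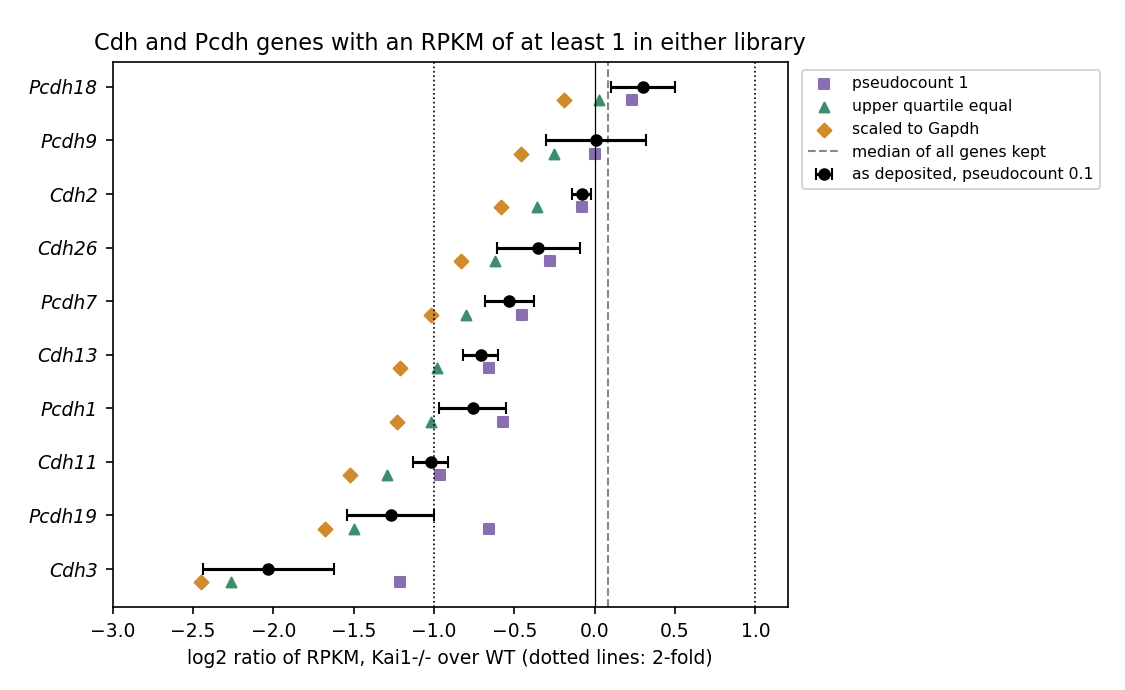
Log2 ratio of RPKM, Kai1-/- over WT, for the 10 genes with an RPKM of at least 1 in either library. Black points are the values as deposited with 0.1 RPKM added and bars are 95% counting intervals from estimated reads; coloured marks give 3 other settings, and Cdh3 lies left of the 2-fold line under every setting drawn, reaching -2.45 when scaled to Gapdh.

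Promoter sequences are shown for the delta-2 pair Pcdh18 and Pcdh19, whose log2 ratios had opposite signs as deposited. That of Pcdh18 was 0.03 with the upper quartiles made equal and -0.19 scaled to Gapdh. The sequence of Cdh26 is shown as that of an expressed gene with another base composition. RefSeq promoter windows of GRCm38.p6 were matched by symbol for 22 of the 34 genes. Among those without a window were Cdh1, Cdh2, Cdh3, Cdh5, Cdh11, Cdh13 and Pcdh1. Each printed run is the 250 bases before the transcript start, 5′ to 3′ on the strand of the gene, with each CG dinucleotide in capitals. Each had 1 exact match on its chromosome in mm9, the Pcdh18 run at chr3:49561239-49561488 on the minus strand, the Pcdh19 run at chrX:130223533-130223782 on the minus strand and the Cdh26 run at chr2:178164970-178165219 on the plus strand.
Pcdh18: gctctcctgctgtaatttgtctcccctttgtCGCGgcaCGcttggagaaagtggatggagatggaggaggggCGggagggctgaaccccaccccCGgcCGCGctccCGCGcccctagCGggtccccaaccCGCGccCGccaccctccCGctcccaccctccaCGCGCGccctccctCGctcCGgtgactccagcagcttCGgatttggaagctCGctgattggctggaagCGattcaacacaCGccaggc
Pcdh19: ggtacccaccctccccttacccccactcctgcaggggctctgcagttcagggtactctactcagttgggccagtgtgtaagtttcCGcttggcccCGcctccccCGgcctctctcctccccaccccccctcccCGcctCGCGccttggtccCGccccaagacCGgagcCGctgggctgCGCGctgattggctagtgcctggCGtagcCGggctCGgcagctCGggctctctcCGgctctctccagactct
Cdh26: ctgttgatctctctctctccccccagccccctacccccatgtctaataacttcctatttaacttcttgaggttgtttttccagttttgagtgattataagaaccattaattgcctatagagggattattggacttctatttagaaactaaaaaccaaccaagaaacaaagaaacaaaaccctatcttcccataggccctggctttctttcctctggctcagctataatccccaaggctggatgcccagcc

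The Pcdh18 run holds 23 CG dinucleotides, the Pcdh19 run 16 and the Cdh26 run 0, and the median over all 32851 windows of this length was 6. Of all windows, 13.3% hold at least as many as Pcdh18 and 25.4% at least as many as Pcdh19. The count ranges of expressed genes and of genes at 0 overlapped: the count ran from 0 to 23 over the 6 windows of the 5 genes with an RPKM of at least 1, and from 3 to 20 over the 8 windows of the 6 genes listed at 0 in both libraries. The E-box CACCTG, read on both strands as CACCTG or CAGGTG and known as a target of the SNAIL and ZEB repressors of E-cadherin, was found in 3 of the 25 windows of the Cdh and Pcdh genes, which belong to Cdh7 and Pcdh15, against 17.2% of all windows. Such a match is only a run of letters in this window. Cdh1, Cdh2, Cdh3, Cdh11 and Cdh13 had no window, so neither the CG counts nor the E-box search cover their promoters.

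The genes at the bottom of the range were seen more often in WT PCs. Of the 34 genes, 26 were above 0 in WT and 17 in Kai1-/- PCs, 9 were above 0 in WT alone and 0 in Kai1-/- alone. Of the 16 genes above 0 and below 1 RPKM in WT PCs, 9 were listed at 0 in Kai1-/- PCs, against 32.0% of all genes in this range. In the other direction the share over all genes was small too. Of all 3450 genes above 0 and below 1 RPKM in Kai1-/- PCs, 7.59% were listed at 0 in WT. Of the 7 genes with about 10 to 100 reads in WT PCs, Cdh10, Cdh18 and Pcdh10 were listed at 0 in Kai1-/- PCs, against 13.6% of all genes with as many reads; this range was set after the values were seen. In all genes the imbalance lay in the same direction, with 5690 symbols listed at 0 in WT and 6902 in Kai1-/- PCs.

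The proteins that anchor cadherins to actin were looked up next. For this list and those that follow, 7.81% of all genes kept were more than 2-fold lower and 7.98% higher, with a median of 0.08. Of 16 catenins and junction linkers, 14 were kept, and their median log2 ratio was -0.27, with 1 gene past 2-fold in each direction. β-Catenin (Ctnnb1), which binds the tail of classical cadherins, had an RPKM of 87.8 in WT and 96.0 in Kai1-/- PCs. The actin cross-linkers Actn1 and Actn4 had 252 and 136, and 233 and 146, and the actin-binding linker Lima1 had 78.9 and 40.4, for a log2 ratio of -0.96. The gene past 2-fold on the lower side was Ctnnd2, the δ-catenin of neurons, with 2.16 and 0.579, a log2 ratio of -1.73. On the higher side it was Tjp1, the junction scaffold ZO-1, with 3.79 and 8.19, a log2 ratio of 1.09. α-Catenin (Ctnna1) had 65.0 and 53.1 and p120-catenin (Ctnnd1) 24.5 and 20.7, and the neuronal α-catenin Ctnna2 had 0.580 RPKM in WT PCs and was listed at 0 in Kai1-/- PCs; these 3 genes were chosen after their values were seen.

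Nectins are immunoglobulin-type adhesion molecules that work beside cadherins at the same junctions. Of 5 genes of this group, 4 were kept, with a median log2 ratio of -0.51. Nectin-1 (Pvrl1) was the 1 gene more than 2-fold lower, with an RPKM of 7.03 in WT and 2.51 in Kai1-/- PCs. Nectin-2 (Pvrl2), the most abundant, had 42.1 and 39.0, the poliovirus receptor gene Pvr had 30.7 and 17.7, and nectin-3 (Pvrl3) had 6.76 and 5.74.

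Transcription factors known to repress cadherin genes were expressed in both libraries. Of 8 listed, 7 were kept, with a median log2 ratio of -0.33. Snai2 was more than 2-fold lower, with an RPKM of 6.51 in WT and 2.64 in Kai1-/- PCs, and its relative Snai1 had 16.8 and 26.6, a log2 ratio of 0.66. Twist2 had 43.8 and 34.4, Twist1 had 7.07 and 7.81, and Tcf3 had 12.8 and 23.9, a log2 ratio of 0.89.

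All 8 proteases and turnover factors of cadherins were kept, none was more than 2-fold different and the median log2 ratio was -0.39. Adam15, a membrane protease, had an RPKM of 49.3 in WT and 28.9 in Kai1-/- PCs. Ncstn and Psen2, which encode subunits of the γ-secretase that cuts cadherin stubs within the membrane, had 33.5 and 17.5, and 18.0 and 9.67.

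Of 9 cytoplasmic partners of protocadherins, 8 were kept, none was more than 2-fold different and the median log2 ratio was -0.14. Members of the WAVE complex, which drives actin branching, had an RPKM of 130 in WT and 205 in Kai1-/- PCs for Brk1, with a log2 ratio of -0.40 for Nckap1, and 11.4 and 10.6 for Wasf2, and the protein phosphatase gene Ppp1ca had 77.0 and 129. Of 25 further genes of the cadherin superfamily found in the tables, 3 were kept, with a median log2 ratio of 0.27. Fat1, a giant cadherin, had an RPKM of 16.9 in WT and 17.9 in Kai1-/- PCs, and Cdhr1 had 2.39 and 3.53. The log2 ratio of calsyntenin-1 (Clstn1), known from synapses, was 0.27.

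**Figure D4:**
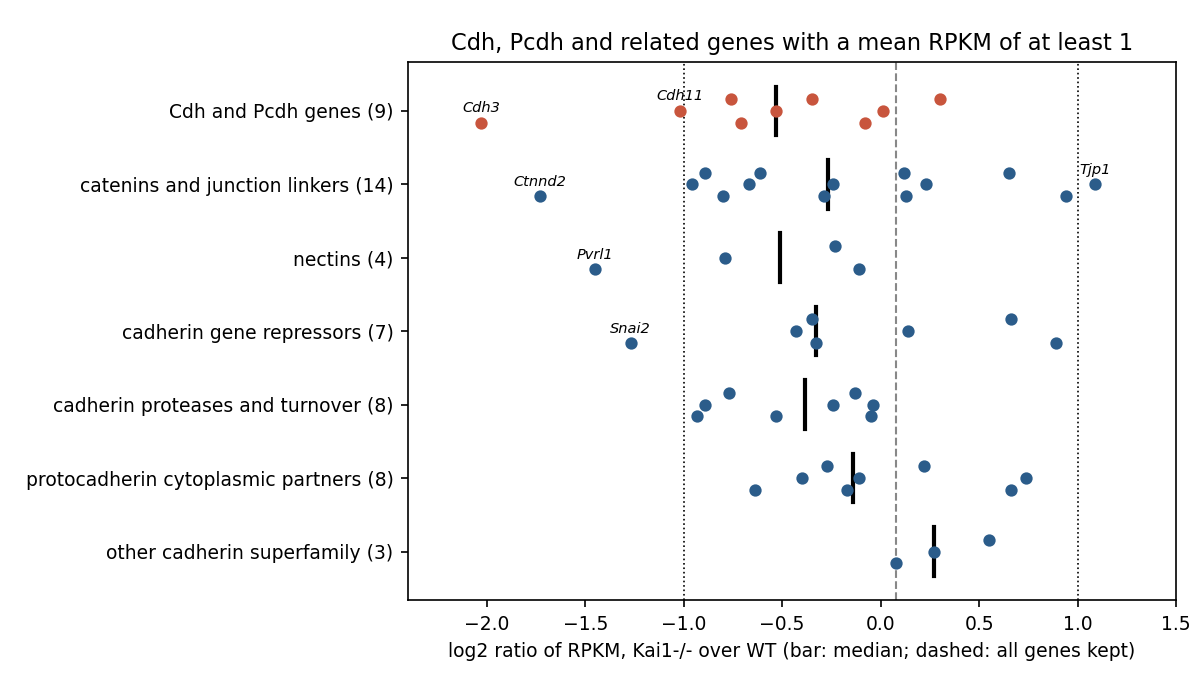
Log2 ratio of RPKM, Kai1-/- over WT, of the 9 genes kept of the 34 and of 6 lists of related genes, with 1 point per gene kept; the number in brackets is the number of genes. Bars are medians, from -0.53 for the 9 genes to 0.27 for other genes of the superfamily, and genes past the dotted 2-fold lines are named.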

How the data were processed

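RNA of aortic PCs was sequenced from 1 WT and 1 Kai1-/- library. The values were deposited as RPKM, 1 per RefSeq gene and library; the submitters' processing notes name mm9, TopHat2 2.0.9, Bowtie and Cufflinks for alignment and quantification. Of 20462 rows, 38 had no symbol and were dropped, and the rows of each of 153 symbols that occurred more than once were averaged.

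Log2 ratios used a pseudocount of 0.1 RPKM and a mean RPKM of at least 1, and a difference was counted from 2-fold. No p-value was computed. The value of 1 read was fitted to low RPKM values of genes with 1 transcript of over 800 bases, and 80.5% of these values in WT and 78.5% in Kai1-/- lay within 0.15 of a whole read. The read fit and the 2-fold counts were tested on simulated data. Positions and transcript lengths came from GENCODE M1 of NCBI37, which is mm9.

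The genes and lists were chosen with earlier results of these data known. Genes with an RPKM of at least 1 in either library were given in full, and those of at least 0.1 with both values. Of each list of related genes, cell type markers apart, genes past 2-fold and up to 4 others with the highest mean were named, and further genes were chosen after their values were seen; some genes of the lists are not reported here by name. Alternatives were other pseudocounts, scalings and filters. Python 3.11.15, numpy 2.4.6, pandas 2.3.3 and matplotlib 3.10.9 were used. Pcdh11x was not found in the tables.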

Additional observations from a re-analysis of the deposited data

How the results depend on the processing

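No paired analysis was possible because there was a single library of either genotype. The number of genes more than 2-fold lower was 2 of 9 as reported (7.81% of all genes kept), 1 with a pseudocount of 1 RPKM (5.68%), where Cdh11 stayed at -0.96, 3 with the upper quartile made equal (12.4%), 1 of 3 with the filter raised to a mean of 5 RPKM (5.37%), and 5 of 9 with both libraries scaled to Gapdh (18.4%), where Cdh13, Pcdh1 and Pcdh7 also passed the line. With the filter at 0.1 RPKM it was 5 of 15 genes (12.6% of all genes) and without a filter 5 of 34 (9.29%), since Cdh10, Cdh18 and Pcdh19 were then counted. No gene was counted as more than 2-fold higher under any of the 8 alternatives. Cdh24, at 222% of the WT level before 0.1 RPKM was added, stood at 0.93 where the filter let it in. A lower filter was not combined with a smaller pseudocount. The median log2 ratio of the genes kept, -0.53, was -0.80 with the upper quartile made equal, -1.02 scaled to Gapdh, -0.17 without a filter and -0.71 with the filter at 5 RPKM. The median of all genes kept moved with the scaling too, from 0.08 to -0.19 and to -0.41. These scalings multiply all genes by the same factor, and genes with low values moved less because 0.1 RPKM was added afterwards. For the 10 genes with an RPKM of 1 or more, 50 log2 ratios were recomputed; 30 of them stayed within the counting interval of the reported ratio and 20 moved further. Scaling to Gapdh turned the direction of Pcdh18 and Pcdh9, to -0.19 and -0.46, and Pcdh9 was also below 0 with medians or upper quartiles made equal. Low reads limit genes such as Cdh24, with about 22 reads in WT PCs.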
